A study of Mus musculus with 4 samples.

Results

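The comparison set the livers of mice that lack Myd88 in hepatocytes against those of mice that keep it, both on control diet, as the difference between 2 of the 4 arrays of the series. Each gene was read from a probe set with 1 gene symbol, taking the brightest probe set where a gene had several. The difference is the log2 value of the knockout array minus that of the wild-type array. Of 22180 genes, 13308 had a mean log2 value over the 4 arrays at or above the 40th percentile, 3.47, and were compared. Wild-type mice had the genotype MyD88 lox/lox and no Cre is named for them, and knockout mice were ALB Cre MyD88 lox/lox, so the recombinase was driven by the albumin promoter, which is active in hepatocytes. All were C57Bl6 mice aged 16 weeks, and the RNA was of total liver, which also holds Kupffer, endothelial, stellate and other cells that keep the gene. The control diet had 9.4% fat, and the other pair of arrays, of the same genotypes on a diet with 60% fat, is used here to place the values. Each array held 1 pool of RNA from 4 to 5 mice picked for RNA quality. There is therefore 1 array a group, no replicate and no test. Effects of the genotype, of carrying Cre and of the particular mice in a pool cannot be told apart, and no difference below has a replicate check.

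MyD88 is the adaptor protein through which most Toll-like receptors, and the receptors for interleukin-1, interleukin-18 and interleukin-33, engage the IRAK kinases and TRAF6 and so activate NF-kappaB and MAP kinases. In liver these receptors sense bacterial products arriving from the gut and cytokines released by resident macrophages. Hepatocytes answer inflammatory cytokines, above all interleukin-6 acting through STAT3 together with interleukin-1 acting through NF-kappaB and C/EBP factors, by secreting acute phase proteins such as serum amyloid A.

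In the knockout pool, the serum amyloid gene Saa2 had the largest positive difference. Most measured acute phase genes (30 of 33) and every measured gene of the exocrine pancreas list (17 of 17) were higher. Most genes that mouse liver expresses more in females, P450s among them, and most targets of the fatty acid receptor PPARalpha were lower. A 2-fold or larger difference was seen for 67 of the 13308 genes, with 46 higher in knockout (0.346%) and 21 lower (0.158%). At 1.5-fold, 120 were higher (0.902%) and 115 lower (0.864%). The adaptors, kinases and NF-kappaB genes of the MyD88 pathway itself differed little, and so did markers of hepatocytes.

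The 2 control-diet arrays correlated across genes with a Pearson r of 0.992, where genes are not independent replicates. In knockout, 6195 of the 13308 genes (46.6%) were higher and 7088 (53.3%) lower, the median difference was -0.02, and the central 95% lay between -0.45 and 0.41. The counts and medians of every gene list below stand beside these values. The band was widest at middling brightness: it ran from -0.36 to 0.40 over the 4003 genes with a mean below 4, from -0.49 to 0.45 between 4 and 5, from -0.56 to 0.42 between 5 and 6, and from -0.30 to 0.47 over the 427 genes with a mean above 10. Hepatocyte markers bore out the labelled tissue: albumin (Alb) read 13.67 in wild type and 13.70 in knockout, and the 11 measured markers had a median difference of 0.01 with 0 past 2-fold. Counting over the same genes for every pair of arrays, the 3 pairs that include the wild-type control array had 67, 140 and 155 genes at least 2-fold different, and the 3 pairs without it had 52, 64 and 81. For knockout minus wild type on high-fat diet, the median over all genes was 0.02 and the central 95% lay between -0.46 and 0.56. List values on that diet are to be read beside these. The shares of all genes higher and lower on that diet were not counted, so counts of genes there have no such share beside them.

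**Figure D1:**
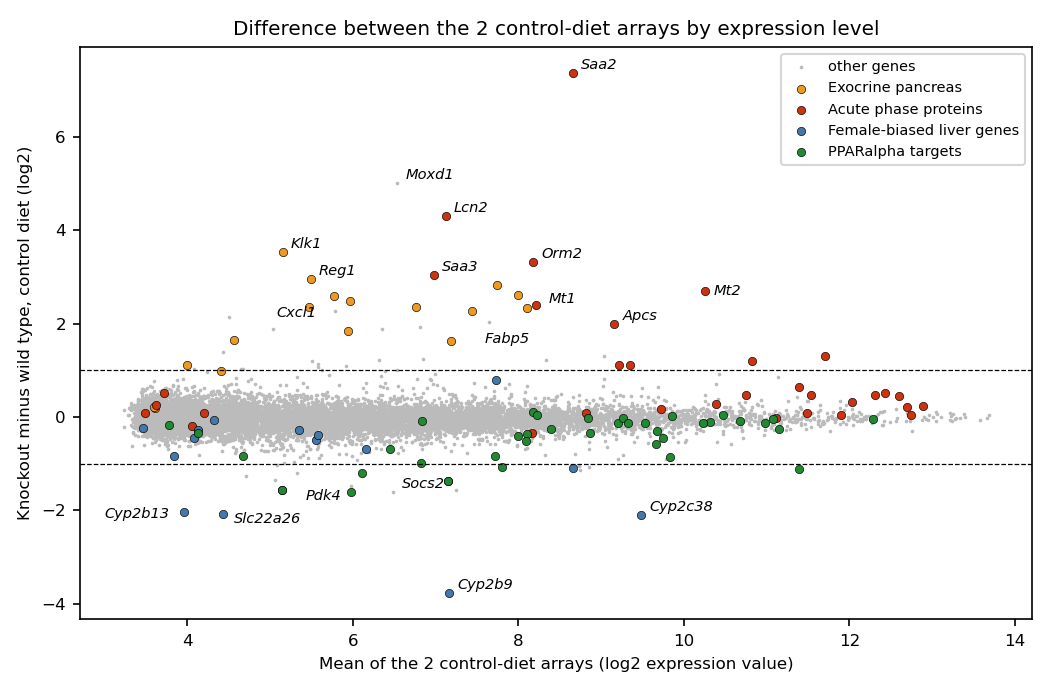
Difference between the knockout and wild-type control-diet arrays (log2, vertical axis) against the mean of the same arrays (log2 expression value, horizontal axis), 1 point a gene; dashed lines mark 2-fold, and genes in both the PPARalpha and the female-biased list are drawn as PPARalpha targets. Most genes lie within the central 95% band from -0.45 to 0.41, Saa2 stands at 7.37, and Cyp2b9 at -3.77.

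The targeted gene came first. Myd88 read 6.10 in wild type and 5.91 in knockout, which differ by -0.19, which lies inside the central 95% of all genes. On high-fat diet it read 6.44 and 6.23, a difference of -0.21. Where the probes of this probe set lie relative to the floxed exons was not analysed here, and other liver cells keep the gene, so the reading cannot serve as a check of the knockout.

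Upstream of the adaptor, 16 receptors of the Toll-like and interleukin-1 families and their co-receptors were measured, of which 12 were higher and 4 lower, 0 past 2-fold, and the median was 0.09. Many were dim: the median level of the list was 3.99 in wild type and 3.97 in knockout, beside a filter at 3.47. Tlr5, the receptor for bacterial flagellin, was the lowest: it read 6.24 in wild type and 5.68 in knockout, and 6.96 and 6.63 on high-fat diet. Tlr2, which recognises bacterial lipoproteins, read 3.49 and 3.89, close to the level of the filter. Il1r1, the signalling receptor of interleukin-1, read 9.31 and 9.57. Tlr4, the receptor for lipopolysaccharide, read 3.57 and 3.69, also close to the filter. The genes for lipopolysaccharide-binding protein (Lbp) and the Tlr4 partner Ly96 differed by 0.18 and 0.10.

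Of 17 adaptors and kinases, 12 were lower, with a median of -0.09, beside 53.3% lower and a median of -0.02 over all genes, and again none reached 2-fold. Traf6, the ubiquitin ligase that MyD88 complexes activate, read 5.60 in wild type and 5.30 in knockout. Peli1, a ligase that acts on IRAK kinases, read 7.69 and 7.39. Irak1 was higher by 0.16, Irak2 and Irak3 differed by -0.12 and -0.17, and the bridging adaptor Tirap by -0.09. The highest was Ube2n, the E2 enzyme that works with Traf6, at 4.19 and 4.58. These differences were of the size seen for most genes.

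Of 15 NF-kappaB subunits, kinases and inhibitors, 10 were higher, with a median of 0.09. Bcl3, an atypical inhibitor family member that is itself a STAT3 and NF-kappaB target, stood apart from the others at 5.50 in wild type and 6.18 in knockout, which differ by 0.68, with 5.88 and 5.39 on high-fat diet. Nfkbia, the classical feedback inhibitor, differed by -0.02, and Tnfaip3, the feedback ubiquitin editor, by 0.23. The subunit genes Rela and Rel differed by -0.12 and -0.18. None of the 15 reached 2-fold.

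Among ligands, Il1a and Il1b were higher by 0.23 and 0.24 and Il18, whose receptor also signals through MyD88, differed by -0.36. Of 20 measured inflammatory cytokine and chemokine genes, 13 were higher and 7 lower, with a median of 0.08, and 2 were past 2-fold upward. Cxcl1, a chemokine that attracts neutrophils, read 4.64 in wild type and 6.92 in knockout, and 6.47 and 6.11 on high-fat diet, so the wild-type control array was the lowest of the 4. Its difference was 2.28, or 4.86-fold. The other was Cxcl11, a ligand of CXCR3, at 4.16 and 5.18, which RefSeq lists as a transcribed pseudogene. Neutrophil markers were dim: 10 of the 13 lay below the filter, with values between 3.02 and 3.51 on all arrays, and the 3 measured differed by -0.09 to 0.21. The 250 bases upstream of the Cxcl1 start are shown because they hold 3 matches, some overlapping, to an NF-kappaB motif (GGG, any 3 bases, TTCC, on either strand), in capitals. The sequence is RefSeq's of build GRCm38.p6, 5′ to 3′ along the gene. Such a match occurred in 4.65% of 32851 windows of the same length.
Cxcl1, chr5:90890995-90891244, plus strand: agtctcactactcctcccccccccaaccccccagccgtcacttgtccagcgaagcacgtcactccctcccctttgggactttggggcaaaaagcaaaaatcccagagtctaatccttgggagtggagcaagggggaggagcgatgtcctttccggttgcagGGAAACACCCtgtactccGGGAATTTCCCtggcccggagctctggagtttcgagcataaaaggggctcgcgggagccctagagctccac

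Genes of interleukin-6 and STAT3 signalling, the main driver of acute phase genes, showed no common direction, with 11 of 19 higher and 8 lower and a median of 0.03. Stat3 itself read 8.71 in wild type and 9.08 in knockout. Its feedback inhibitor Socs3 read 4.36 and 4.81, though the mean over all probe sets of Socs3 differed by 0.16, and the oncostatin M receptor gene Osmr read 5.12 and 5.52. Il22ra1, the interleukin-22 receptor, differed by -0.69. The receptor Il6ra and the shared chain Il6st differed by -0.10 and -0.03. No component of the pathway was at least 2-fold different.

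Of 33 measured acute phase protein genes, 30 were higher and 3 lower in knockout, 11 of them at least 2-fold higher and none at least 2-fold lower, and the median was 0.47 beside -0.02 over all genes. On high-fat diet the same 33 had a median of 0.07 beside 0.02 over all genes. The serum amyloid gene Saa2, whose product rides on high-density lipoprotein in inflammation, read 4.97 in wild type and 12.34 in knockout, and 10.73 and 10.83 on high-fat diet. The difference of 7.37, or 165-fold, was the largest of all genes, and both high-fat arrays stood much nearer the knockout control array than the wild-type one. Signal over background is unknown, so this and the other folds given here are ratios of the deposited values only. Saa3, the serum amyloid gene also made by macrophages and adipose tissue, read 5.46 and 8.50, and 7.49 and 8.93 on high-fat diet. Saa4, which is expressed without inflammation, differed by 0.48. The serum amyloid genes are close copies, so these values may mix copies.

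Lcn2 encodes lipocalin 2, which withholds iron from bacteria by binding their siderophores. It read 4.97 in wild type and 9.27 in knockout, and 7.56 and 8.37 on high-fat diet, a control-diet difference of 4.30 or 19.7-fold. Orm2, an orosomucoid that carries small lipophilic molecules in plasma, read 6.51 and 9.83, and 8.44 and 8.47 on high-fat diet, a difference of 3.32 or 9.98-fold. Its neighbour Orm1, which was bright in both pools, read 11.07 and 11.71. For Lcn2, Orm2 and Saa2 the order of the 4 arrays was the same, with the wild-type control array lowest and the knockout control array highest.

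The 250 bases upstream of Saa2, Saa3, Lcn2 and Orm2 are shown because these had the 4 largest differences among acute phase genes and each window holds a match to the C/EBP motif TTGCNNAA on either strand, in capitals. The sequences are RefSeq's of build GRCm38.p6, 5′ to 3′ along each gene.
Saa2, chr7:46751583-46751832, plus strand: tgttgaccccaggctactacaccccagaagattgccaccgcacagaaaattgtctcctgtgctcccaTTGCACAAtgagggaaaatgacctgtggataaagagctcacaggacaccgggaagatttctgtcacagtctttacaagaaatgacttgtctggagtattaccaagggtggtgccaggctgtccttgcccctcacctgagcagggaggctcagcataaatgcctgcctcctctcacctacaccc
Saa3, chr7:46715677-46715926, minus strand: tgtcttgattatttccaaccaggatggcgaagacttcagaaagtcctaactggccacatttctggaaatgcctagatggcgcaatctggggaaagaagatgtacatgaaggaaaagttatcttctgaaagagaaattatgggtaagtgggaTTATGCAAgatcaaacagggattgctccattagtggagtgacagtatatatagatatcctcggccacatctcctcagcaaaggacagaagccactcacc
Lcn2, chr2:32387740-32387989, minus strand: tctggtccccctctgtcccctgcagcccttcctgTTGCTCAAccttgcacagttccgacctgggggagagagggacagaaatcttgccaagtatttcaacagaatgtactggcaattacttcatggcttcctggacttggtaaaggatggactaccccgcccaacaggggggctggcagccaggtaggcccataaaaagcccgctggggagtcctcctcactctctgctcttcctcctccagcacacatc
Orm2, chr4:63362199-63362448, plus strand: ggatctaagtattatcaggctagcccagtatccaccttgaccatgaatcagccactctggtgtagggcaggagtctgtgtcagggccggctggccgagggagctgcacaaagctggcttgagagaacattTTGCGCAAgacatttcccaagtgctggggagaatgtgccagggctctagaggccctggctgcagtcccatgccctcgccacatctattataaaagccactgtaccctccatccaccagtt

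Of the 11 acute phase genes at least 2-fold higher, 10 had a promoter in the reference table, and 6 of those held the C/EBP motif, which were Saa2, Saa3, Lcn2, Orm2, Mt2 and Steap4. The motif occurred in 9.56% of 32851 windows and in 9.09% of the 21263 windows of protein-coding genes. The NF-kappaB motif was found in 3 of the 10, Lrg1, Serpina3n and Steap4. The STAT motif TTCNNNGAA was found in 2, Apcs and Steap4, beside 7.02% of all windows. The C/EBP motif was also found among lower genes. It was in 3 of 6 promoters of female-biased genes at least 2-fold lower, Cyp2a4, Cyp2b13 and Cyp2b9. Among PPARalpha targets at least 2-fold lower it was in 1 of 4, Acot1. A match describes these letters and shows no binding.

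The remaining acute phase genes past 2-fold covered several functions. Apcs, the gene of serum amyloid P, a pentraxin that coats debris and microbes, read 8.16 in wild type and 10.16 in knockout, which differ by 1.99, with 7.62 and 8.13 on high-fat diet. It was the 1 gene of the 11 for which the wild-type control array was not the lowest. Serpina3n, a protease inhibitor, read 11.05 and 12.37, and Fgl1, a secreted fibrinogen-like protein, 10.22 and 11.43. Lrg1, a leucine-rich glycoprotein of plasma, read 8.66 and 9.78, and Steap4, a metalloreductase of the cell membrane, 8.80 and 9.91. The knockout control array was the highest of the 4 for 9 of the 11 genes, and Saa3 and Steap4 were highest on the knockout high-fat array.

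Abundant acute phase genes were higher by less. Haptoglobin (Hp), which captures free haemoglobin, read 12.18 in wild type and 12.69 in knockout, and hemopexin (Hpx), which captures haem, 12.37 and 12.82. The fibrinogen chains Fga, Fgb and Fgg were higher by 0.31, 0.23 and 0.22. Crp, the C-reactive protein gene that responds weakly in mice, differed by 0.09, ceruloplasmin (Cp) by 0.04, complement factor B (Cfb) by -0.03 and hepcidin (Hamp), the iron hormone induced by interleukin-6, by 0.03. Its copy Hamp2 differed by -0.34.

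Metallothioneins, the small zinc-binding and copper-binding proteins induced by metals, glucocorticoids and interleukin-6, were counted in the acute phase list and also set against other genes of metal handling. Mt2 read 8.91 in wild type and 11.61 in knockout, and 10.47 and 10.94 on high-fat diet, a difference of 2.70 or 6.49-fold. Mt1 read 7.01 and 9.42, and 8.73 and 9.33 on high-fat diet, a difference of 2.41 or 5.31-fold. Of 20 measured genes of metal handling, 7 were higher, Mt1 and Mt2 among them, and 13 were lower. Slc39a14, the zinc importer of the acute phase, differed by 0.08, the metal-sensing factor Mtf1 by 0.03, and Hmox1, which degrades haem, read 6.03 and 5.16, a difference of -0.87. Glucocorticoid and fasting responsive genes other than Lcn2, Mt1 and Mt2 did not reach 2-fold, with Fkbp5 at 0.16 and Tsc22d3 at -0.16. The upstream windows of Mt1 and Mt2 are shown because the neighbouring genes were higher together. Both hold TGCACNC on either strand, the form of the metal response element core that was searched, which occurred in 10.4% of all windows. Other forms of the core were not searched and are not marked. Its matches, and for Mt2 the C/EBP match, are in capitals, from the same build. The windows were otherwise unlike, with 46.3% identity in a global alignment.
Mt1, chr8:94178839-94179088, plus strand: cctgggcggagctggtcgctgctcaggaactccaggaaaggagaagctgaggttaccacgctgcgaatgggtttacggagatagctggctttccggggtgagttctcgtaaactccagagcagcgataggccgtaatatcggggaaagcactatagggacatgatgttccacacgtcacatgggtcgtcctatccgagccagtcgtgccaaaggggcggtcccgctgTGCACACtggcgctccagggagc
Mt2, chr8:94172368-94172617, plus strand: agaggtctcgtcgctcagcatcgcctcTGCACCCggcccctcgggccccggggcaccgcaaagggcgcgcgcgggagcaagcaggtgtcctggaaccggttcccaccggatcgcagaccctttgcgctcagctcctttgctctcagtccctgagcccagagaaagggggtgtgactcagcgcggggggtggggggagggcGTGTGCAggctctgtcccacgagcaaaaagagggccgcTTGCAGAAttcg

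**Figure D2:**
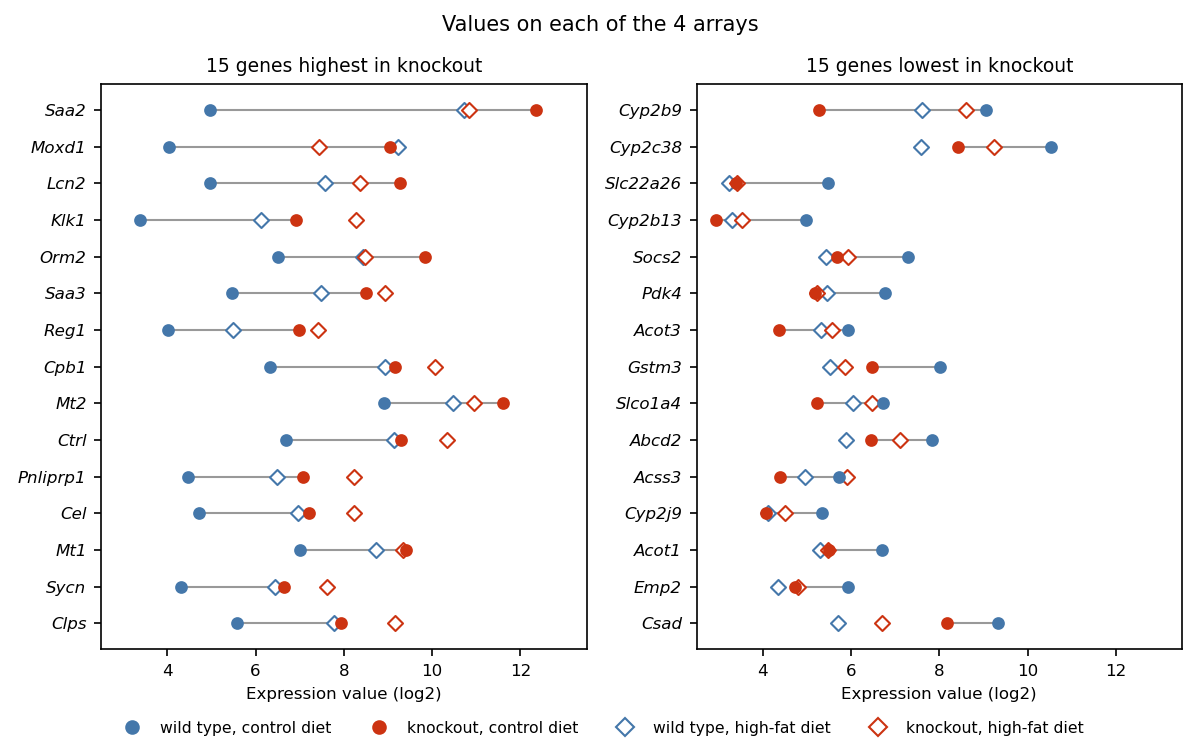
Log2 expression value (horizontal axis) on each of the 4 arrays for the 15 genes with the highest and the 15 with the lowest control-diet difference, predicted and non-coding genes left out; circles are control diet, diamonds high-fat diet, blue wild type and red knockout, and a grey line joins the 2 control-diet arrays. The wild-type control circle lies at the left end for all 15 genes of the left panel, with Saa2 at 4.97 against 12.34.

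Proteins that the liver makes less of in inflammation did not mirror the acute phase genes. Of 18 negative acute phase genes, 12 were higher and 6 lower, with a median of 0.03. Transthyretin (Ttr) differed by -0.02, Alb by 0.03 and the apolipoprotein gene Apoa1 by -0.04. The exception was Serpina7, the thyroxine-binding globulin, which read 9.39 in wild type and 8.33 in knockout, with 7.85 and 8.60 on high-fat diet, a difference of -1.06.

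Of 33 complement and coagulation genes, 26 were higher, beside 46.6% of all genes, with a median of 0.13. C2, a classical pathway protease, read 6.95 in wild type and 7.44 in knockout, and the coagulation factor gene F11 8.99 and 9.47. C8a, of the membrane attack complex, was higher by 0.37. C4a was the 1 member past 2-fold, at 5.38 and 6.47, and 7.99 and 6.85 on high-fat diet. It lies among close copies, so it may be read together with C4b, which differed by 0.28, and RefSeq lists it as a transcribed pseudogene.

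No member of the interferon stimulated list, or of the guanylate binding and interferon-gamma response list, reached 2-fold. Of 22 measured interferon stimulated genes, 19 were higher, with a median of 0.19 beside -0.02 over all genes. On high-fat diet 18 were higher, with a median of 0.20 beside 0.02 over all genes. Zbp1, a nucleic acid sensor, read 4.90 in wild type and 5.75 in knockout, with 5.28 and 5.61 on high-fat diet. Usp18, which restrains interferon receptor signalling, was higher by 0.50 on control diet and by 0.86 on high-fat diet. Of 12 guanylate binding and interferon-gamma response genes, 10 were higher, with a median of 0.26. Gbp7 read 6.37 and 7.18 and Gbp10 7.77 and 8.44, both guanylate binding proteins that attack intracellular microbes. For these 4 genes, from the upper ends of their lists, the knockout value was above the wild-type value on both diets. Other members went the other way on both. Ifit3, the lowest of the interferon stimulated list, differed by -0.48 on control and -0.14 on high-fat diet, and Irgm2 by -0.01 and -0.06. Antigen presentation genes had a median of 0.11, led by the immunoproteasome genes Psmb9 at 0.50 and Psmb8 at 0.41.

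**Figure D3:**
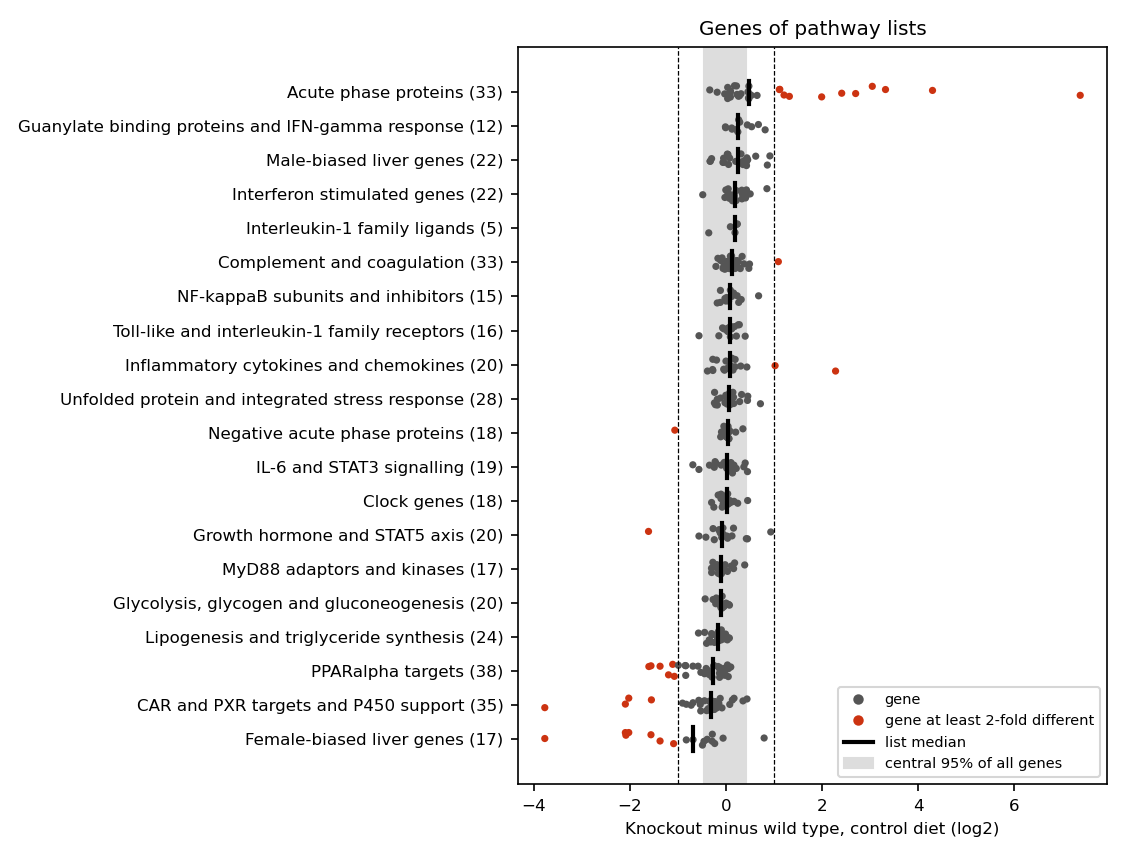
Control-diet difference (log2, horizontal axis) of every measured gene of 20 pathway lists, 1 point a gene, with the number of genes in brackets; red points are at least 2-fold different, black bars are list medians, and the grey band is the central 95% of all genes. Points beyond 2-fold are mostly acute phase genes on the right and PPARalpha targets, CAR and PXR targets and female-biased genes on the left, with medians of 0.47, -0.27, -0.30 and -0.69. The female-biased list shares genes with the PPARalpha list and with the CAR and PXR list, and a shared gene is drawn in each.

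The lowest genes were cytochrome P450s and transporters that mouse liver expresses at a higher level in females, a pattern set by the timing of growth hormone pulses. Cyp2b9, a P450 of this kind, read 9.05 in wild type and 5.28 in knockout, and 7.61 and 8.60 on high-fat diet. Its difference of -3.77, or 13.6-fold lower, was the lowest of all genes, and the high-fat arrays lay between the control ones. Cyp2c38, a P450 that oxidises fatty acids, read 10.53 and 8.43, a difference of -2.09, but 7.59 and 9.24 on high-fat diet, where knockout was the higher. Slc22a26, an organic anion transporter, read 5.47 and 3.39, and 3.24 and 3.42 on high-fat diet, and Cyp2b13 4.97 and 2.95, and 3.30 and 3.52. For the last pair of genes, 3 of the 4 arrays were below or near the level of the filter, and the wild-type control array alone was well above it.

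The upstream windows of Cyp2b9 and Cyp2b13 are shown because these P450s are close copies: 248 of 250 bases were identical (99.2%). Both hold the same match to the C/EBP motif, in capitals, from the same build. The coding parts are alike as well, so probes may read both genes, which was not tested.
Cyp2b9, chr7:26173159-26173408, plus strand: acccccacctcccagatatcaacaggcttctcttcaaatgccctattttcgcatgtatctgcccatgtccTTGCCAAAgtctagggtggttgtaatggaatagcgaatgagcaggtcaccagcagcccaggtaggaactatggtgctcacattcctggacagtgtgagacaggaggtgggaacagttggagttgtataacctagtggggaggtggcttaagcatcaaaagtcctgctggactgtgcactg
Cyp2b13, chr7:26061245-26061494, plus strand: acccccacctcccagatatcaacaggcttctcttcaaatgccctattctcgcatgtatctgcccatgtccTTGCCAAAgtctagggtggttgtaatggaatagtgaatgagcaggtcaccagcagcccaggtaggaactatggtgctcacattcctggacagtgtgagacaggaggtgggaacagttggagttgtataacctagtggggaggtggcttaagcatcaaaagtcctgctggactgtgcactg

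Of all 28 female-biased genes on the array, dim ones included, 20 were lower, 7 of them by 2-fold or more, and the median was -0.30. For the 17 past the filter, 16 were lower and the median was -0.69. Of these, 3 passed only through the wild-type control array, Slc22a26 and Cyp2b13 among them, so the count of 16 is not independent of the filter. The wild-type control array was the highest of the 4 for 12 of the 17. Cyp2a4, a steroid hydroxylase, read 9.21 and 8.12, with 7.80 and 7.87 on high-fat diet, and was lower in knockout on control diet by a difference of -1.09. The exception was Cyp17a1, a steroid hydroxylase and lyase, at 7.34 and 8.13. On high-fat diet the list's median was 0.25 and 14 of 17 were higher in knockout.

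Of 22 male-biased genes, 16 were higher on control diet, none at 2-fold, with a median of 0.25. Selenbp2, a selenium-binding protein, read 9.97 in wild type and 10.88 in knockout, and Cyp7b1, an oxysterol hydroxylase, 10.71 and 11.57. The Mup20 gene, a major urinary protein of males, differed by 0.05, and the P450 genes Cyp4a12a and Cyp4a12b, which are strongly male, by -0.33 each. On high-fat diet 18 of the 22 were lower in knockout. The labels used here give no sex. Xist, the transcript of the inactive X chromosome, was below the filter on all 4 arrays, at 3.07 to 3.23, and the Y-linked gene Eif2s3y read 7.84 and 7.67 on control diet and 7.71 and 8.23 on high-fat diet. These sex chromosome readings therefore showed Y-linked RNA in every pool.

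Genes of the growth hormone and STAT5 axis had 7 of 20 higher and a median of -0.08, with larger differences in a few regulators. Socs2, a feedback inhibitor that growth hormone induces, read 7.30 in wild type and 5.68 in knockout, and 5.44 and 5.93 on high-fat diet, a difference of -1.61, with the wild-type control array highest. A second, dim probe set of Socs2 differed by -0.02, and the mean of its probe sets by -0.82. Cish, another STAT5 target, read 5.06 and 4.50. Bcl6, a repressor that is more active in male liver, was higher at 6.53 and 7.46. The growth hormone receptor gene Ghr and Igf1, its main product in plasma, differed by 0.12 and 0.03.

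PPARalpha is the nuclear receptor that turns on fatty acid oxidation in fasting. Of 38 measured targets, 34 were lower in knockout, 6 of them by 2-fold or more, and 0 were 2-fold higher. The median was -0.27. Abcd2 and Acot3 are also in the female-biased list. Without these 2 genes, 32 of 36 were lower, 4 of them by 2-fold or more, and the median was -0.25. Pdk4, the kinase that shuts off pyruvate oxidation, read 6.78 in wild type and 5.18 in knockout, and 5.46 and 5.23 on high-fat diet, a difference of -1.60. The acyl-CoA thioesterase genes lay together: Acot1 read 6.71 and 5.51, Acot2 8.33 and 7.26, and Acot3 5.92 and 4.36. They are close copies of each other, so their values may not be separate. Abcd2, a peroxisomal transporter of very long chain fatty acids, read 7.83 and 6.46, and 5.90 and 7.11 on high-fat diet.

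Cyp4a14, a fatty acid omega-hydroxylase, was the sixth target past 2-fold, at 11.94 in wild type and 10.84 in knockout. The other targets did not reach 2-fold. The fasting hormone gene Fgf21 read 7.31 and 6.32. Ehhadh, of peroxisomal beta-oxidation, was lower by a difference of -0.85. Ppara itself differed by -0.01, the mitochondrial gatekeeper Cpt1a by 0.05 and the lipase inhibitor gene Angptl4 by -0.03. The wild-type control array was the highest of the 4 for 26 of the 38, and for all 6 that were past 2-fold. On high-fat diet the list's median was 0.03, with 20 of 38 higher in knockout.

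Targets of CAR and PXR, the nuclear receptors for drugs and bile acids, had 30 of 35 measured members lower and a median of -0.30, or 32 of 40 and -0.28 with the dim genes included. They share 7 genes with the female-biased list. In the whole list, 4 members were at least 2-fold lower. Without the shared genes, 23 of 28 were lower, 1 of them by 2-fold or more, and the median was -0.29. Gstm3, a glutathione transferase, read 8.03 and 6.47, with 5.52 and 5.86 on high-fat diet. Cyp3a11, the main drug-metabolising P450 of mouse liver, read 9.66 and 8.76. The receptor genes Nr1i2 and Nr1i3 differed by -0.37 and -0.30. Cyp3a13 and Cyp2c70 were higher, by 0.44 and 0.35.

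In 3 lists of fat and sugar metabolism, a larger share of genes was lower than the 53.3% over all genes. Of 24 lipogenesis genes, 21 were lower, with a median of -0.16, among them Pparg at 5.07 and 4.50 and the malic enzyme gene Me1 at 10.94 and 10.50. Srebf1, the factor that drives the pathway, differed by -0.01. Of 20 genes of glycolysis, glycogen and gluconeogenesis, 17 were lower with a median of -0.10, and the gluconeogenic genes G6pc and Pck1 differed by -0.07 and -0.05. Lipid droplet genes had 12 of 16 lower, with Plin5, which ties droplets to mitochondria, at 8.29 and 7.68. None of these 3 lists had a member past 2-fold.

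Of the other genes lower by 2-fold or more, Slco1a4, a transporter of organic anions and bile acids, read 6.72 and 5.24, and Csad, which makes taurine from cysteine, 9.32 and 8.18, with 5.71 and 6.71 on high-fat diet. Acss3, Cyp2j9, Emp2, Gpd1l and Rdh16 were in no list and differed by -1.03 to -1.35. Rdh16, a retinol dehydrogenase, read 9.26 and 8.21, and Cyp2j9, a P450 of the arachidonic acid epoxygenase family, 5.35 and 4.08. In all, 12 of the 21 lower genes were in the PPARalpha, female-biased or CAR and PXR lists.

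Transcripts of the exocrine pancreas also differed between the pools. All 17 measured genes of this list were higher in knockout, 14 by 2-fold or more, with a median of 2.34. With the dim genes of the list included, 20 of 22 were higher and the median was 1.75. The chymotrypsinogen gene Ctrb1 read 6.93 in wild type and 9.28 in knockout, and 9.31 and 10.36 on high-fat diet. Klk1, a kallikrein, read 3.38 and 6.92, and 6.11 and 8.27. Summed over the 17 genes on the linear scale, the level was 9.46 in wild type and 11.80 in knockout as a log2 value, and 11.65 and 12.86 on high-fat diet. Every one of the 17 was lowest on the wild-type control array and highest on the knockout high-fat array. Of all 33 measured acute phase genes, 21 were also lowest on the wild-type control array. Of the same 33, 22 were highest on the knockout control array and 5 on the knockout high-fat array. Whether pancreatic tissue or RNA in a pool, or liver cells, gave the pancreas transcripts was not tested, nor was their part in other differences.

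Gastric mucosa markers had 2 of 7 members past 2-fold, the gland mucin Muc6 at 3.44 and 5.57, with 3.42 and 3.51 on high-fat diet, and the trefoil factor Tff2 at 4.09 and 5.98. Muc6 passed the filter only through the knockout control array. With the dim genes included, the same 2 of 12 were past 2-fold and the median was 0.13. The stomach-specific genes Atp4a, Gkn1 and Pgc read between 3.56 and 4.01 on every array. Skeletal muscle markers had a median of 0.04 and none past 2-fold. On high-fat diet all 12 measured muscle markers were lower in knockout, 6 by 2-fold or more, with a median of -1.06. All 12 were highest on the wild-type high-fat array. Listed pancreas and gastric markers were 16 of the 46 higher genes, and 30 were left without them. The 30 include the pseudogene Gm5409, which had the same lowest and highest array as the pancreas genes.

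Among cells that belong to the liver, Kupffer cell markers had 8 of 13 lower and a median of -0.12. The scavenger receptor gene Marco read 6.02 in wild type and 5.22 in knockout, and Adgre1, a general macrophage marker, 6.90 and 6.26. Clec4f, specific to Kupffer cells, read 8.65 and 8.77, so the markers did not move together. In bulk RNA, fewer cells of a type and less RNA per cell cannot be told apart. Sinusoidal endothelial markers had a median of -0.08, stellate cell markers -0.01 and monocyte markers 0.06, with 0 past 2-fold in these 4 lists. In the cholangiocyte list Tff2 was the 1 gene past 2-fold, and Epcam, Sox9 and Krt7 differed by 0.10, 0.08 and -0.19.

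**Figure D4:**
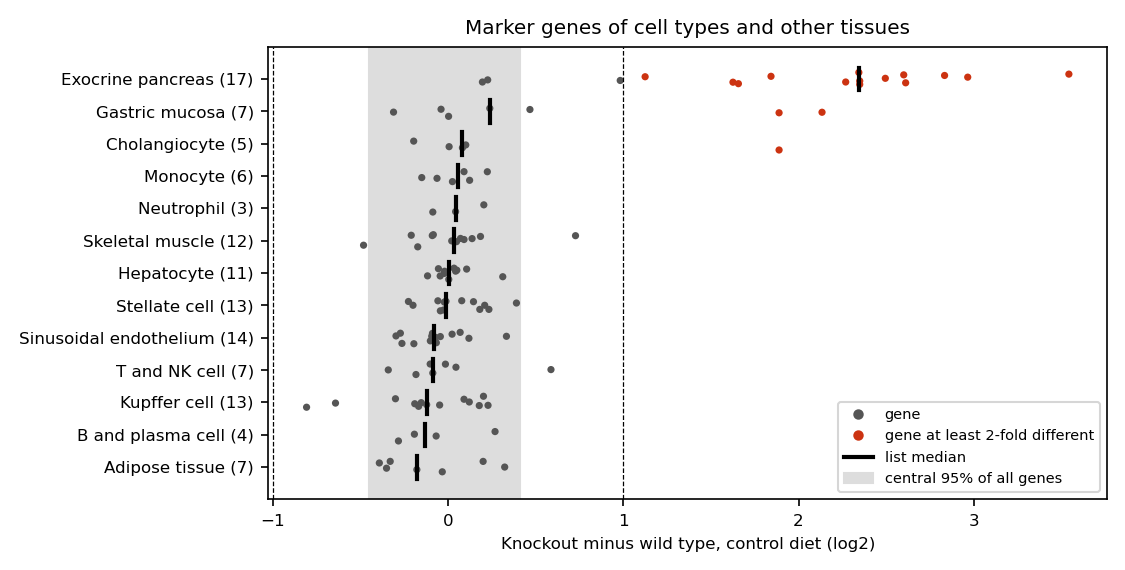
Control-diet difference (log2, horizontal axis) of the measured marker genes of 13 cell types and tissues, 1 point a gene, with the number of genes in brackets; red points are at least 2-fold different, black bars are medians and the grey band is the central 95% of all genes. Exocrine pancreas markers have a median of 2.34, and those of the liver and blood cell types lie between -0.13 and 0.08.

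Of the 46 higher genes, 15 were in no list, and those described here were chosen after their values were seen. Moxd1, a monooxygenase related to dopamine beta-hydroxylase, had the second largest positive difference. It read 4.03 in wild type and 9.04 in knockout, which differ by 5.00, and 9.24 and 7.44 on high-fat diet. The wild-type control array alone was near the level of the filter, and since its signal over background is unknown no fold is given. Fabp5, a fatty acid binding protein listed under fatty acid uptake, read 6.63 and 8.67, and 5.73 and 5.82 on high-fat diet, so here the knockout control array alone was high. Its 4 probe sets were higher by 1.14 to 2.10. Nnmt, which methylates nicotinamide, read 5.84 and 7.78, and 7.69 and 7.30 on high-fat diet. Prg4, the lubricin gene, was higher by 1.32, Dnajc12, a co-chaperone of aromatic amino acid hydroxylases, by 1.24, and the trefoil factor gene Tff3 by 1.23. Atp11a and Smarcd1 passed 2-fold with their brightest probe set, at 1.02 and 1.14, and not with the mean of their probe sets, at 0.54 and 0.68.

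The high-fat arrays place these differences. Of the 46 higher genes, 41 had the wild-type control array below the other 3 arrays, and both high-fat arrays lay nearer the knockout control array for 31, nearer the wild-type control array for 9 and were split for 6. Without the pancreas and gastric markers, 26 of 30 had the wild-type control array below the rest. Of the 21 lower genes, 20 had it above the other 3. Genes were chosen for a difference between the control arrays, so an end position of 1 of these 2 arrays is favoured, and the positions share the wild-type control array with the comparison itself. For the 46 higher genes the knockout control array was at the upper end in 24, and for the 21 lower genes at the lower end in 9. Whether the wild-type control pool or the other 3 pools are typical of their groups cannot be told apart with 1 array each.

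The genotype difference on high-fat diet uses the other pair of arrays. On that diet 30 genes passed 2-fold upward (0.225%) and 22 downward (0.165%). Pancreas markers were 12 of the 30, and skeletal muscle markers were 6 of the 22. Of the 46 genes higher on control diet, 33 had a positive difference on high-fat diet, with a median of 0.41 over all 46. Of these, 13 were again at least 2-fold higher, of which 11 were pancreas markers and the others Saa3 and Gm5409. Gm5409, a pseudogene in RefSeq, was in no list and read 5.41 in wild type and 7.30 in knockout, and 6.86 and 7.94 on high-fat diet. Like the pancreas genes, it was lowest on the wild-type control array and highest on the knockout high-fat array. The 16 pancreas and gastric markers had a median of 1.15 there. Without them 18 of 30 were positive, with a median of 0.09. Saa2, Orm2 and Lcn2 differed by 0.10, 0.04 and 0.81. Of the 21 genes lower on control diet, 20 had a positive difference on high-fat diet, with a median of 0.43, and Pdk4 was the exception at -0.23. Cyp2c38 and Abcd2 were at least 2-fold higher in knockout there, by 1.65 and 1.21.

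**Figure D5:**
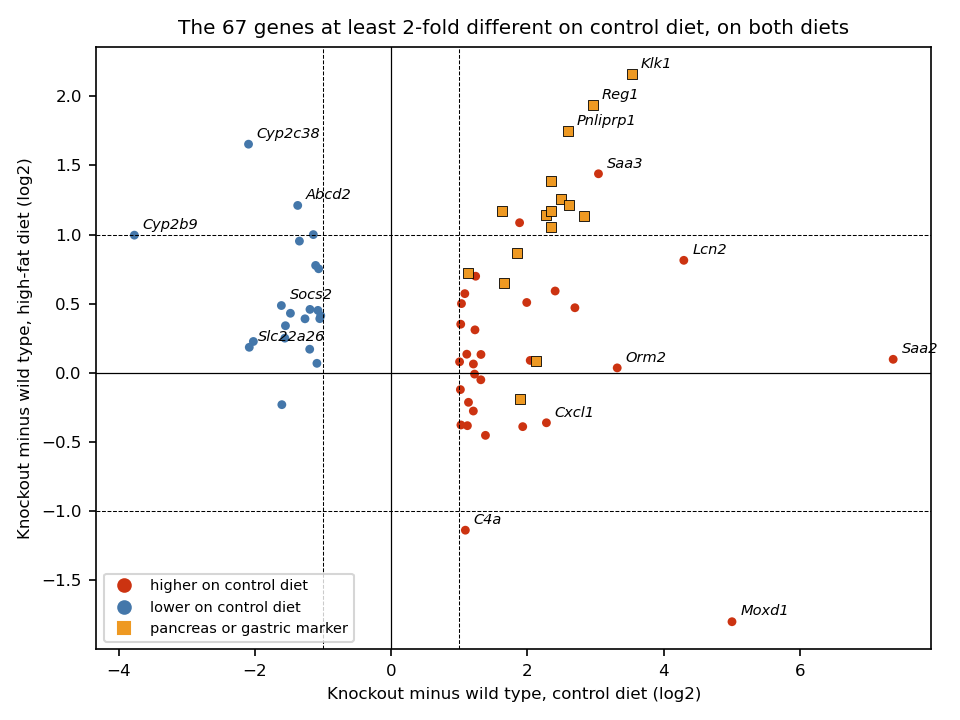
Knockout minus wild type on high-fat diet (log2, vertical axis) against the same difference on control diet (log2, horizontal axis) for the 67 genes at least 2-fold different on control diet; red and blue points were higher and lower on control diet, orange squares are pancreas or gastric markers, and dashed lines mark 2-fold. The blue points lie above 0 on the vertical axis except Pdk4, the squares lie mostly near or above 1, and Saa2 is at 7.37 and 0.10.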

How the data were processed

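Pooled RNA of total liver was labelled with biotin and hybridised to 4 Affymetrix gene arrays, 1 for each genotype and diet. Per the submitters' processing notes, the authors used Affymetrix Expression Console and RMA, and the deposited table holds 1 log2 value a probe set and array. RMA subtracts background, equalises the distribution of values between arrays and combines probes, which removes shifts of a whole array and shrinks differences at low brightness. Background calls and scan batches were not analysed here, so signal over background is unknown, and the number of arrays limits the precision.

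Of 41345 probe sets, 23521 had 1 gene symbol in the platform annotation, 1814 had several and 16010 had none. The brightest probe set over the 4 arrays stood for each of 22180 genes, a choice among several for 1082 of them, and 13308 genes passed the filter at the 40th percentile. Knockout minus wild type on control diet was a subtraction of log2 values, and genes were counted at 2-fold, a log2 difference of 1. No p-value can be given. Counting was tested on simulated data with known differences. The comparison and the 51 gene lists were chosen with earlier results of these data known. The lists name 939 genes, of which 840 matched and 730 passed the filter, and each list's counts and median are to be read beside those of all genes compared.

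Genes named were drawn from Myd88 and the 15 highest and 15 lowest, predicted and non-coding genes left out. They were also drawn from the 4 highest and 4 lowest of each list and all of lists with up to 8 measured. All receptors, adaptors, NF-kappaB and acute phase genes were open to naming as well. The text gives a selection of these genes, and not every one is named. Other genes past 2-fold, Xist, and well-known members of a list that lie between its ends were named after their values were seen. Motifs were searched on both strands of the 250 bases upstream of each RefSeq start in build GRCm38.p6. They were those spelled out beside their results and a PPARalpha direct repeat, AGGTCA, any base, AGGTCA, found in 0.033% of windows and in none of the groups searched. Protein sequences were not used here. The software was Python 3.11.15 with pandas 2.3.3, NumPy 2.4.6 and matplotlib 3.10.9, and R 4.3.3 with limma 3.58.1 for the alternative normalisations.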

Additional observations from a re-analysis of the deposited data

Results flagged for a closer look

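For 4 genes the genotype difference was at least 2-fold on both diets and of opposite sign; the difference between diets was not tested, since each group has 1 array. Moxd1 differed by 5.00 (knockout minus wild type, control diet) and by -1.80 on high-fat diet. C4a was higher by 1.09 and differed by -1.14. Cyp2c38 differed by -2.09 on control diet and was higher by 1.65 on high-fat diet, and Abcd2 differed by -1.37 and was higher by 1.21.

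Probe sets without a single gene symbol were outside the comparison, and past the same filter they also held 2-fold differences. Of 1043 probe sets with several symbols, 12 were at least 2-fold higher in knockout on control diet and 0 lower, with the largest at 6.10. Of 7133 with no symbol, 97 were higher and 125 lower, between -2.80 and 3.02.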

How the results depend on the processing

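Across the deposited values, cyclic loess, quantile normalisation, median centring, the mean over probe sets, both other filters and the count without predicted and non-coding genes, 41 to 49 genes were at least 2-fold higher and 19 to 21 lower. Under the 3 normalisations, all 46 higher genes stayed past 2-fold. At 1.5-fold the counts were 120 higher and 115 lower, and without the pancreas, muscle and gastric markers 30 were higher. With no filter on dim genes the female-biased list had a median of -0.30 and the exocrine pancreas list of 1.75. With the filter at the 60th percentile the proliferation list had a median of -0.28, beside 0.05, with fewer members left. Of 295 list medians recomputed, 12 changed sign, all of lists with a median within 0.05 of 0. With the mean over probe sets, Atp11a differed by 0.54, Fabp5 by 1.68, Smarcd1 by 0.68, Socs2 by -0.82 and Socs3 by 0.16. Chosen after seeing the data, leaving out the acute phase list left 35 higher genes, and leaving out the female-biased list left 14 lower ones. No paired analysis was possible because each group has 1 array, and for the same reason no array could be left out. The planned comparison of protein sequences was not run. Without replicates the spread between mice, pools and hybridisations is unknown.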

Other observations

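Other gene groups differed by less between the control-diet arrays. Of 28 genes of the unfolded protein and integrated stress response, 20 were higher in knockout, with a median of 0.07 and none at 2-fold. Sdf2l1, an endoplasmic reticulum protein of this response, read 6.61 in wild type and 7.33 in knockout, while Ddit3, its pro-apoptotic factor, read 4.84 and 4.62. Cholesterol synthesis genes had 12 of 18 higher and a median of 0.05. Among them Sqle, the squalene epoxidase, read 5.90 and 6.88, and 5.13 and 5.93 on high-fat diet. Of 18 clock genes 10 were higher, with a median of 0.02, and Per3 was the highest at 5.20 and 5.65. Immediate early and heat shock genes had a median of 0.00, and Ccn1, a matricellular protein gene, was the lowest at 6.97 and 6.25, with 6.94 and 6.37 on high-fat diet.

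Genes of amino acid catabolism had a median of 0.02, and Csad, at -1.14, was the 1 of 21 past 2-fold. Bile acid genes had a median of -0.05, with Slco1a4 at -1.48 and Cyp7b1 at 0.86, while Cyp7a1, the rate-limiting enzyme, differed by 0.15. Cd36, a fatty acid uptake receptor, read 8.44 in wild type and 7.78 in knockout, and 7.96 and 8.68 on high-fat diet. Genes of hepatocytes around the central vein had a median of 0.03 and ribosomal protein genes of 0.00, with 0 past 2-fold in both.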
